A study of Mus musculus with 8 samples.

Results

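The 7 genes described here encode proteins of mineralised bone matrix and were taken by symbol from the 32285 genes of the deposited count tables. Spp1 (osteopontin), Ibsp (bone sialoprotein), Dmp1 (dentin matrix protein) and Mepe (matrix extracellular phosphoglycoprotein) belong to the SIBLING family of secreted, heavily phosphorylated glycoproteins. Bglap, Bglap2 and Bglap3 are the mouse osteocalcin genes. All 7 reached at least 10 counts per 1000000 UMIs (CPM) in the mean of at least 1 annotated cell type, as did 13126 genes in all. A unique molecular identifier (UMI) marks 1 captured RNA molecule, and CPM relates a gene's UMIs to all UMIs of the nuclei summed.

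Nuclei came from the petrous temporal bone (PTB), the capsule around the inner ear, and from the paraflocculus and flocculus (PF/F), the cerebellar lobules beside it, of P5.5 mice. WT littermates were set against Tbx1+/- mice, heterozygous throughout the body for a targeted Tbx1 allele, both on the C57BL/6J background. Each tissue had 2 WT and 2 Tbx1+/- libraries, and each library was a pool of 5 mice, so the library is the replicate and the spread between single animals was averaged out. Nuclei hold mostly unspliced and newly made RNA, and in sums over all nuclei of a tissue, fewer cells of a type and less RNA per cell cannot be told apart. The 31076 annotated PTB nuclei fell into 15 types, with 5981 to 9977 nuclei per library, and their median depth was 3853 to 4758 UMIs. Any pair of PTB libraries shared 11 to 26 barcodes among annotated nuclei. Tbx1 itself, a transcription factor gene of the pharyngeal and otic regions, was at 38.9 and 39.4 CPM in the annotated PTB nuclei of WT and at 26.3 and 35.7 CPM in those of Tbx1+/-. WT replicate 1 stood apart in these genes, with the highest Spp1 and Ibsp in all 3 bone-forming classes. For most of the genes, levels and ratios in leading classes are therefore given with and without it, as are most genotype differences.

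SIBLING proteins share an acidic, flexible backbone with an integrin-binding motif and bind hydroxyapatite. Bone sialoprotein favours the first mineral crystals in osteoid, osteopontin restrains crystal growth and tethers osteoclasts, and the dentin matrix protein and MEPE are made by osteocytes, where they take part in phosphate control. Osteocalcin carries residues that vitamin K-dependent carboxylation turns into mineral-binding sites. Osteoblasts lay these proteins down in sequence, and osteoclasts, which come from the blood lineage, resorb them. Osteoclasts can themselves make osteopontin, so for Spp1 they are a neighbouring cell type rather than an empty reference.

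Both groups are clustered in the genome (GRCm38 coordinates, GENCODE vM21). The 4 SIBLING genes lie within 238 kb of chromosome 5, all on the plus strand: Dmp1 at chr5:104202613-104214102, Ibsp at chr5:104299171-104311469, Mepe at chr5:104325329-104338611 and Spp1 at chr5:104435118-104441050. The 3 osteocalcin genes lie within 15.8 kb of chromosome 3 on the minus strand, Bglap3 at chr3:88368616-88372743, Bglap2 at chr3:88377736-88378699 and Bglap at chr3:88383501-88384464. A predicted gene overlaps Spp1 on the same strand, so reads there could be assigned to either gene.

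The osteocalcin coding sequences are printed because their near identity limits how counts can be split among the 3 genes. Each has 285 coding bases without the stop codon, taken from the GENCODE vM21 transcripts, and capitals mark the 13 positions at which the 3 are not all alike.
Bglap: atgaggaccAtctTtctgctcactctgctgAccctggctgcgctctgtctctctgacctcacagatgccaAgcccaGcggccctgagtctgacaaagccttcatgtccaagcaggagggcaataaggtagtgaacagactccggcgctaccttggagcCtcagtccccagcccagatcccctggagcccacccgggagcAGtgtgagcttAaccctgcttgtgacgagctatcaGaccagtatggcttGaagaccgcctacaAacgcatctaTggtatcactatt
Bglap2: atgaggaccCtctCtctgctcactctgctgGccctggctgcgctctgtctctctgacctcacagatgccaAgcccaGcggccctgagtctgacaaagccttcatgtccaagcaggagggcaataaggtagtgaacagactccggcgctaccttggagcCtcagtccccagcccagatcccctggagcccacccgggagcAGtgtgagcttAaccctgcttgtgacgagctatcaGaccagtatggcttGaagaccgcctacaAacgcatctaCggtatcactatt
Bglap3: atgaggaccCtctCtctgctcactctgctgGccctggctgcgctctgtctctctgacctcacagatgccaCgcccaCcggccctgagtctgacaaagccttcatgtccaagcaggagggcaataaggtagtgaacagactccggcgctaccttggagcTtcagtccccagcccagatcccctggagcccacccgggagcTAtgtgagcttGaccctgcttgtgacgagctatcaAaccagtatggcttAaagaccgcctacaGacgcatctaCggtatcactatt
Bglap and Bglap2 differed at 4 of these positions (98.6% identity), Bglap and Bglap3 at 13 (95.4%), and Bglap2 and Bglap3 at 9 (96.8%). Of all stretches of 90 bases in its transcript, Bglap shared 60.4% with another osteocalcin transcript, Bglap2 63.4% and Bglap3 4.78%. Counts of Bglap and Bglap2 are therefore uncertain as a split between the 2 genes, since a read that fits both is not counted or may be misplaced.

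RefSeq holds 10 windows before the starts of 6 of the genes. The stretches shown are the 4 of these 10 in which the core letters bound by RUNX factors, ACCACA or its reverse complement TGTGGT, occur within 250 bases upstream (GRCm38.p6), 1 each for Spp1, Dmp1, Mepe and Bglap. The window of Ibsp, the 3 of Bglap3 and a second one each of Spp1 and Dmp1 lacked them. Capitals mark these letters and the TATA box letters TATAAA or TTTATA, wherever they occur. The TATA letters begin at -211 in Spp1, -173 in Mepe and -27 in Bglap, counted from the start. The Ibsp window, not printed, holds them at -28, and 4 of the 10 windows hold them in all.
Spp1, chr5:104434861-104435110, plus strand: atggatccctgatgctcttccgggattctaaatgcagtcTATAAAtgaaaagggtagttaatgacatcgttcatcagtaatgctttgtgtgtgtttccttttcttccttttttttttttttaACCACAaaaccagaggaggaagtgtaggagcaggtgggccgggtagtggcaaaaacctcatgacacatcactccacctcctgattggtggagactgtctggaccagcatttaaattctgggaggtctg
Dmp1, chr5:104202367-104202616, plus strand: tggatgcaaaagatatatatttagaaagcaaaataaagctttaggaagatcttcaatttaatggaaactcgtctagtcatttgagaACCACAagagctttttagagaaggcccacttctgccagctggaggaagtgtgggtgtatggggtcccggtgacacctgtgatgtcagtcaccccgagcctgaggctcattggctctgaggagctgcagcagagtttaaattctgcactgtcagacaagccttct
Mepe, chr5:104325079-104325328, plus strand: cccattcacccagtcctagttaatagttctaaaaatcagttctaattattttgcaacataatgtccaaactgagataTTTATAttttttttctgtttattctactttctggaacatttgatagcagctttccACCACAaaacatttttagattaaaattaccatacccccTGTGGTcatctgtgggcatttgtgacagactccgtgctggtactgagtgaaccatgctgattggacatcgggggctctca
Bglap, chr3:88384467-88384716, minus strand: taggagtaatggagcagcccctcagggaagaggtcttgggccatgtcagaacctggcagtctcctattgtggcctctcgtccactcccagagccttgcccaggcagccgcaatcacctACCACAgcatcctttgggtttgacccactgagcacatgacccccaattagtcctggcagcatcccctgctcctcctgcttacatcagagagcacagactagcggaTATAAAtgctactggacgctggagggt
Of 32851 RefSeq windows of this length, 14.05% held the RUNX letters and 12.4% the TATA letters on either strand, and the 2 motifs did not overlap in the 4 windows printed. A match describes the letters and is not a bound site.

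In the PTB annotation 3 classes are called bone-forming here by their labels, and each of the 7 genes is highest in 1 of them. They are labelled hypertrophic chondrocyte/osteoblasts (the hypertrophic class below), osteoblasts, and matured osteoblasts/osteocytes (matured osteoblasts below). The osteoblast marker list, 10 genes with none of the 7 among them, summed to 28422 to 36825 CPM in osteoblasts and to 4789 to 7937 CPM in osteoclasts, the lowest of the 15 types. Matured osteoblasts had 23764 to 36541 CPM of it. The hypertrophic class, at 18705 to 20586 CPM, ranked 4th, behind the progenitor type CP1 at 19793 to 22103 CPM. Matured osteoblasts led the 9 osteocyte markers at 6848 to 7143 CPM, with Sost, an osteocyte inhibitor of bone formation, at 44.0 to 92.4 CPM. Osteoclasts led the 10 osteoclast markers at 11933 to 13649 CPM. This reference class also led the 6 muscle markers, at 665 to 946 CPM, with matured chondrocytes next at a mean of 245 CPM. The name of the hypertrophic class was borne out only in part. It led the summed list of 5 hypertrophic markers at 2018 to 2736 CPM, but Col10a1, the collagen that defines hypertrophic cartilage, was at 24.7 to 86.8 CPM there against 104 to 306 CPM in matured chondrocytes. Col2a1, the main cartilage collagen, ranked 12th of 15 types in it, at 372 to 619 CPM, and Ihh was at 0.53 to 4.02 CPM.

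Spp1 was highest in the hypertrophic class. Its level there was 8322 CPM in WT replicate 1, 3625 in WT replicate 2, 3130 in Tbx1+/- replicate 1 and 4230 in Tbx1+/- replicate 2, a mean of 4827 ± 2373 CPM (SD, n = 4). The next type, matured osteoblasts, had 4030 and 1100 CPM in WT and 1430 and 1772 CPM in Tbx1+/-, and was lower in 4 of 4 libraries, by a mean of 2744 ± 1098 CPM (SD, n = 4). WT replicate 1 was the highest library in both types. Osteoblasts followed at 1510 ± 563 CPM (SD, n = 4), lower than matured osteoblasts in 4 of 4 libraries, but the difference of 573 ± 786 CPM (SD, n = 4) was within its spread. Osteoclasts had 1111 and 582 CPM in WT and 935 and 906 CPM in Tbx1+/-, and 13th place in the order of types. Below the first rank most neighbours differed by less than their spread, and connective tissue and chondrocyte progenitor types lay between 858 and 1143 CPM in the mean.

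Ibsp was the most abundant of the 7 in both osteoblast classes. Osteoblasts had 10761 and 5076 CPM in WT and 4544 and 5282 CPM in Tbx1+/-, a mean of 6416 ± 2913 CPM (SD, n = 4). Matured osteoblasts had 10976 and 4010 CPM in WT and 4452 and 4470 CPM in Tbx1+/-. The 2 classes differed by 439 ± 600 CPM (SD, n = 4), less than the spread between libraries, and both lay above the hypertrophic class, which had 1947 ± 354 CPM (SD, n = 4). In osteoclasts, last of the 15 types, Ibsp was at 959 ± 154 CPM (SD, n = 4).

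Dmp1 marked the matured osteoblasts most sharply. It was at 2516 and 1295 CPM there in WT and at 1788 and 1445 CPM in Tbx1+/-, a mean of 1761 ± 544 CPM (SD, n = 4). No other type came close: the hypertrophic class had 243 ± 62.3 CPM (SD, n = 4) and osteoblasts 228 ± 49.4 CPM (SD, n = 4), and these 2 did not differ beyond their spread. Osteoclasts had 99.0 and 39.9 CPM in WT and 109 and 80.7 CPM in Tbx1+/-. Mepe had the same first place at a lower level. Matured osteoblasts had 349 and 74.2 CPM of Mepe in WT and 122 and 220 CPM in Tbx1+/-, the widest relative spread of the 4 SIBLING genes in its leading type. Osteoblasts had 67.1 ± 17.1 CPM (SD, n = 4), the hypertrophic class 36.4 ± 10.8 CPM (SD, n = 4) and osteoclasts 15.3 ± 7.79 CPM (SD, n = 4), and each step down to matured chondrocytes exceeded its spread.

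The 3 osteocalcin genes peaked in osteoblasts and not in the matured class. Bglap was at 1442 and 741 CPM in osteoblasts of WT and at 589 and 929 CPM in those of Tbx1+/-. It was lower in matured osteoblasts in 4 of 4 libraries, by a mean of 510 ± 256 CPM (SD, n = 4), where it had 573 and 304 CPM in WT and 323 and 462 CPM in Tbx1+/-. The level of Bglap2 was 318 ± 155 CPM (SD, n = 4) for osteoblasts, and the matured class had 164 ± 67.3 CPM (SD, n = 4). Bglap3, the least abundant of the 7, reached 25.5 ± 10.6 and 13.3 ± 6.35 CPM (SD, n = 4) in the same classes. Without WT replicate 1, the level in the leading class was 3662 ± 551 CPM for Spp1, 4967 ± 381 for Ibsp, 1509 ± 253 for Dmp1, 139 ± 74.6 for Mepe and 753 ± 171 for Bglap (SD, n = 3). In the hypertrophic class the osteocalcins were behind matured chondrocytes, and Bglap there was at 273 ± 68.8 CPM (SD, n = 4).

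**Figure D1:**
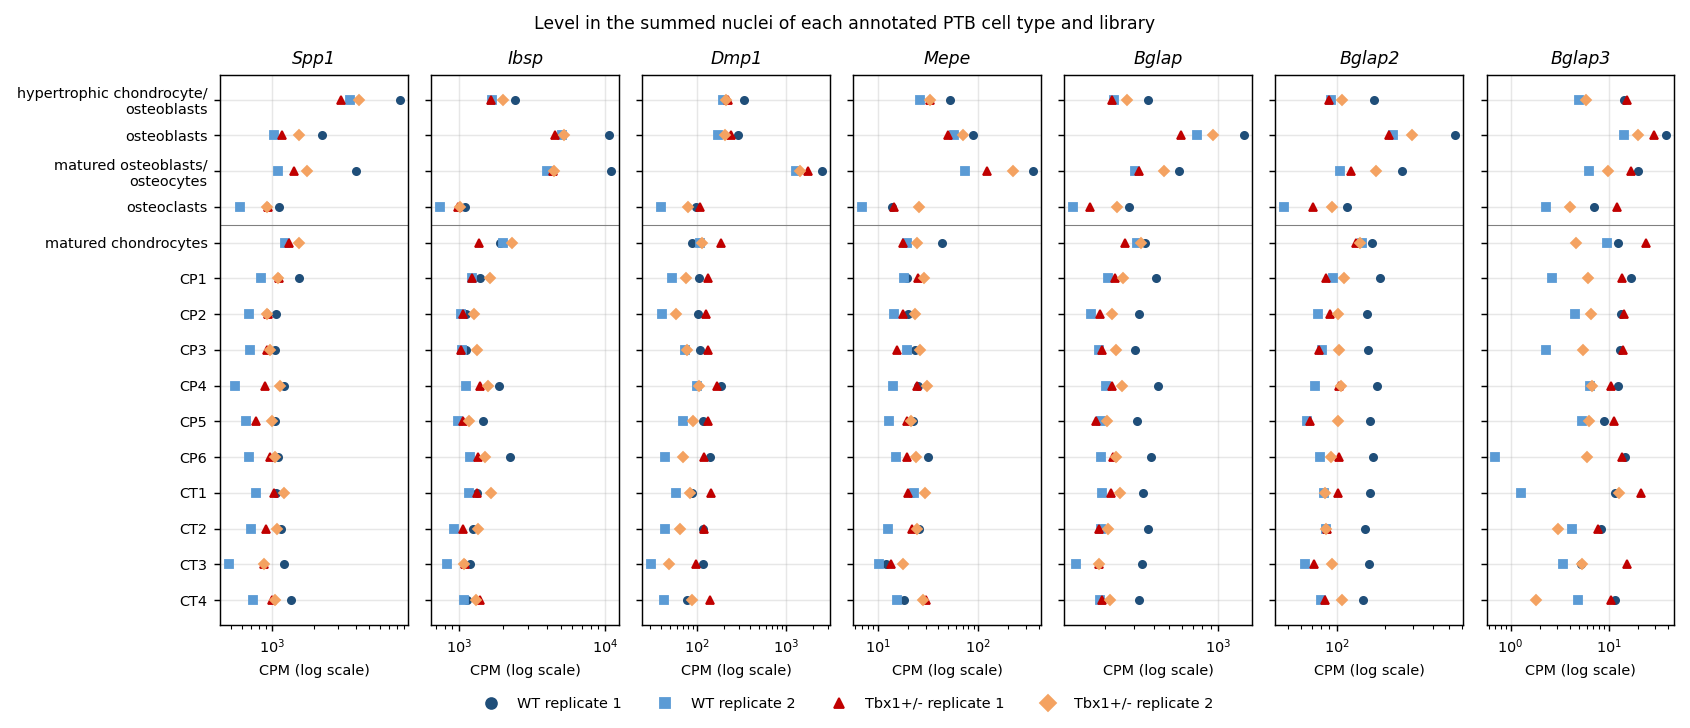
Level of each gene in CPM (log axis) in the 15 annotated PTB types, 1 point per library, with WT and Tbx1+/- in different colours. Spp1 led in the hypertrophic class at 4827 CPM in the mean, Ibsp in osteoblasts at 6416 CPM, Dmp1 in matured osteoblasts at 1761 CPM and the osteocalcins in osteoblasts.

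Shares of the UMIs of these 7 genes show the same division within a class and do not depend on the other RNA of the nuclei. In the hypertrophic class Spp1 made up 63.2% of them in the mean of the 4 libraries and Ibsp 27.4%. In osteoblasts Ibsp made up 67.2%, Spp1 16.2% and Bglap 9.80%. Matured osteoblasts had 55.7% Ibsp, 18.9% Spp1 and 17.7% Dmp1, which was 2.56% in osteoblasts. Ibsp UMIs per Spp1 UMI numbered 0.29 to 0.53 over the 4 libraries in the hypertrophic class, 3.39 to 4.94 in osteoblasts and 2.52 to 3.64 in matured osteoblasts, and these ranges do not meet that of the hypertrophic class. Over the 12 other types the range was 0.84 to 2.08, between those of the bone-forming classes, with 0.99 to 1.27 in osteoclasts.

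**Figure D2:**
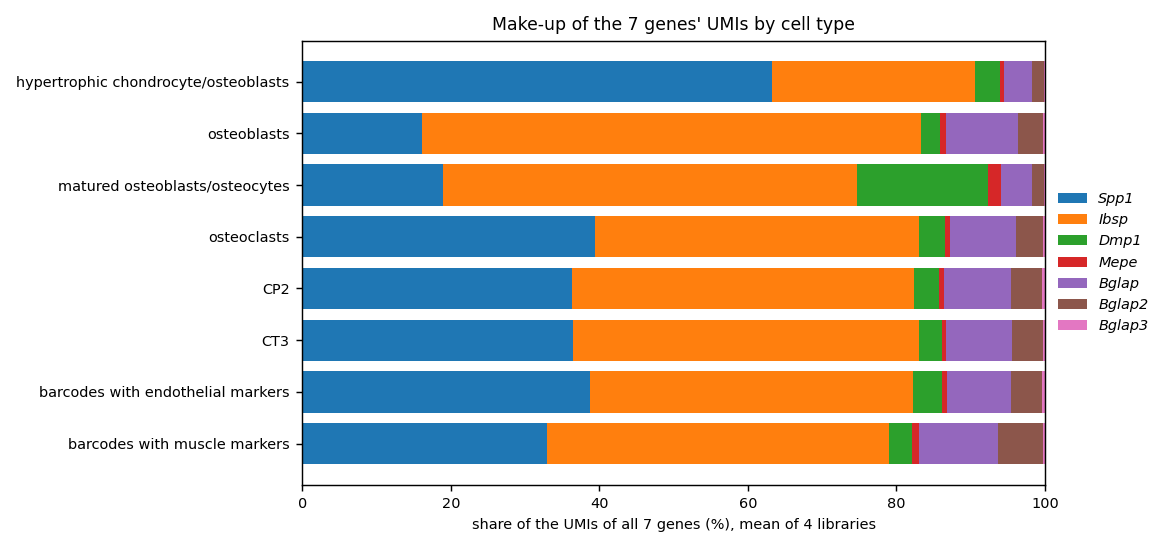
Share in percent of each gene among the UMIs of the 7 genes, as the mean of the 4 libraries in each class. Spp1 is the largest share in the hypertrophic class (63.2%) and Ibsp in osteoblasts (67.2%), matured osteoblasts (55.7%) and osteoclasts (43.5%).

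The same 3 classes held most UMIs of the family. Hypertrophic nuclei were 11.7% to 15.7% of annotated nuclei and held 34.7% to 44.8% of the Spp1 UMIs. Osteoblasts were 14.6% to 21.4% of nuclei and held 47.6% to 54.9% of Ibsp and 43.6% to 53.7% of Bglap. Matured osteoblasts, only 2.44% to 3.30% of nuclei, held 24.0% to 29.1% of Dmp1.

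Free RNA released from broken cells enters every droplet, and the deposited counts are not corrected for it, so each level was set against osteoclasts of the same library. In CPM, all 7 genes were above osteoclasts in 4 of 4 libraries in each of the 3 classes. Among the 13126 genes the same held for 45.0% in the hypertrophic class, 36.8% in osteoblasts and 26.6% in matured osteoblasts. The median log2 ratio of all these genes was 0.18, 0.04 and -0.11 in the 3 classes. Dmp1 in matured osteoblasts had the highest ratio, 22.2 as the geometric mean of libraries that ranged from 16.4 to 32.5. In their own leading classes, Mepe stood at 11.7 (8.29 to 25.3), Ibsp at 6.34 (4.61 to 9.83), Spp1 at 5.20 (3.35 to 7.49) and Bglap at 4.56 (3.66 to 5.87). Ibsp in matured osteoblasts, at 5.73, and Mepe in osteoblasts, at 4.74, also lay in this range. Without WT replicate 1 the ratios in the leading classes were 21.2 for Dmp1, 9.10 for Mepe, 5.48 for Ibsp, 4.60 for Spp1 and 4.39 for Bglap. Against barcodes outside the annotation, described below, the ratios over all 4 libraries were 40.4 for Dmp1, 16.9 for Mepe, 10.8 for Ibsp, 8.31 for Spp1 and 7.41 for Bglap. Bglap in the hypertrophic class, at 1.39 (1.15 to 1.80), was the lowest of the 21 ratios. With UMIs per nucleus in place of CPM, chosen after seeing the data, it was not above osteoclasts, with a mean log2 ratio of -0.012 and 0.99 to 1.61 UMIs per nucleus against 0.96 to 1.80 in osteoclasts. By that measure Mepe, Bglap2 and Bglap3 in the hypertrophic class also lay below osteoclasts in a Tbx1+/- library.

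In the 11 remaining types single-library ratios ran from 0.82 to 2.11 for Spp1 and from 0.61 to 2.74 for Dmp1. In CPM, Ibsp was above osteoclasts in 4 of 4 libraries in all 14 other types, as was 6.30% of the 13126 genes, with 1.03 to 2.70 in the 11. Per nucleus this did not hold for every type. In WT replicate 1, CP2 held 3.86% of the Ibsp UMIs with 12.2% of annotated nuclei, whereas osteoclasts held 1.81% with 4.28%. Barcodes that the annotation does not hold gave a reference with other cells. Those with at least 3 UMIs of neuron markers, which are put in no named type here, had 0.50 times the Spp1, 0.43 times the Ibsp and 0.39 times the Dmp1 CPM of osteoclasts as geometric means, at a median depth of 7419 to 10915 UMIs against 4963 to 7105 in osteoclasts. The groups with other markers lay nearer to osteoclasts: for Spp1, Ibsp and Dmp1 in this order, barcodes with endothelial markers had 0.92, 0.93 and 1.00 times their CPM, those with glia markers 0.83, 0.79 and 0.73 times, and those with muscle markers 0.87, 1.09 and 0.74 times. Over all such barcodes outside the annotation that carried markers of other cells, Spp1 was at 386 to 667 CPM, Ibsp at 494 to 680 CPM, Dmp1 at 23.0 to 70.2 CPM and Bglap at 91.7 to 194 CPM. Osteoclasts had 884 ± 220 CPM (SD, n = 4) of Spp1 and 202 ± 71.0 CPM (SD, n = 4) of Bglap.

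**Figure D3:**
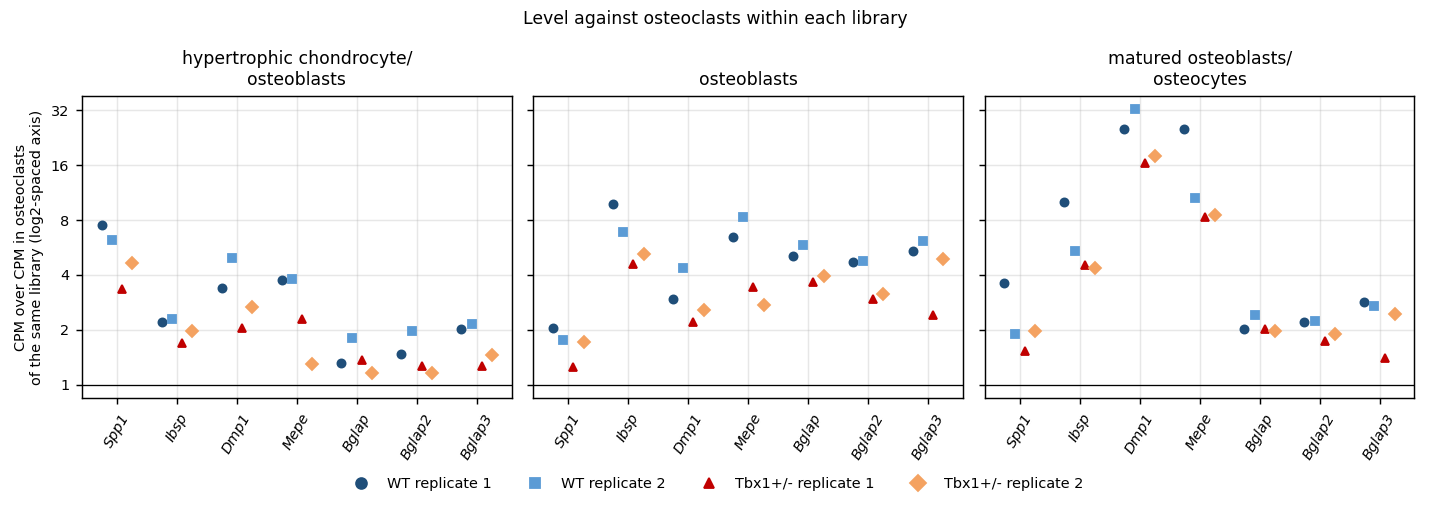
Ratio of each gene's CPM to that of osteoclasts in the same library (log axis), for the 3 bone-forming classes, 1 point per library. All points lie above 1, from 1.15 for Bglap and Bglap2 in the hypertrophic class to 32.5 for Dmp1 in matured osteoblasts.

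Nearly every PTB nucleus carried UMIs of the abundant members. To compare types of unlike depth, each nucleus was thinned to 2000 UMIs, which left out 178 to 425 shallower nuclei per library. Spp1 then had a UMI in 92.6% to 96.7% of hypertrophic nuclei and in 60.8% to 81.2% of osteoclasts (99.3% to 99.7% and 95% to 99.2% unthinned). Ibsp had one in 96.6% to 98.8% of osteoblasts and 66.2% to 80.7% of osteoclasts (99.7% to 100% and 93.9% to 99.3% unthinned). A UMI of either gene in a nucleus thus says little about its type. Median depths before thinning were 3975 to 4689 UMIs in the hypertrophic class, 4340 to 5356 in osteoblasts, 4109 to 5373 in matured osteoblasts and 4963 to 7105 in osteoclasts. Dmp1 separated better, with 49.7% to 71.9% of matured osteoblasts, 18.1% to 28.9% of osteoblasts and 9.97% to 20.9% of osteoclasts (61.0% to 82.9%, 32.9% to 48.8% and 20.0% to 43.5% unthinned). For Bglap the shares were 50.3% to 67.5% of osteoblasts and 22.2% to 41.6% of osteoclasts (72.5% to 85.6% and 54.4% to 69.3% unthinned).

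High counts were most frequent in the leading class, and for Spp1 and Ibsp they were also seen in other classes. At least 10 of 2000 UMIs were Spp1 in 19.5% to 52.0% of hypertrophic nuclei, 4.90% to 18.2% of matured osteoblasts, 1.59% to 11.1% of osteoblasts and 0.64% to 2.91% of osteoclasts. For Ibsp the shares were 28.7% to 58.0% of osteoblasts, 23.6% to 55.8% of matured osteoblasts, 4.06% to 12.7% of hypertrophic nuclei and 0.96% to 4.12% of osteoclasts. Outside these classes they reached 5.70% for Spp1 in CP1 in a library, and for Ibsp 9.73% in matured chondrocytes, 6.20% in CP4 and 4.64% in CP6, which overlap the hypertrophic range. At least 5 UMIs were Dmp1 in 23.1% to 40.5% of matured osteoblasts, with 1.61% to 2.62% in osteoblasts, 1.15% to 3.51% in the hypertrophic class and at most 0.57% of osteoclasts in a library. Single nuclei reached 200 Spp1 UMIs of 2000 in the hypertrophic class and 292 Ibsp UMIs of 2000 in osteoblasts.

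**Figure D4:**
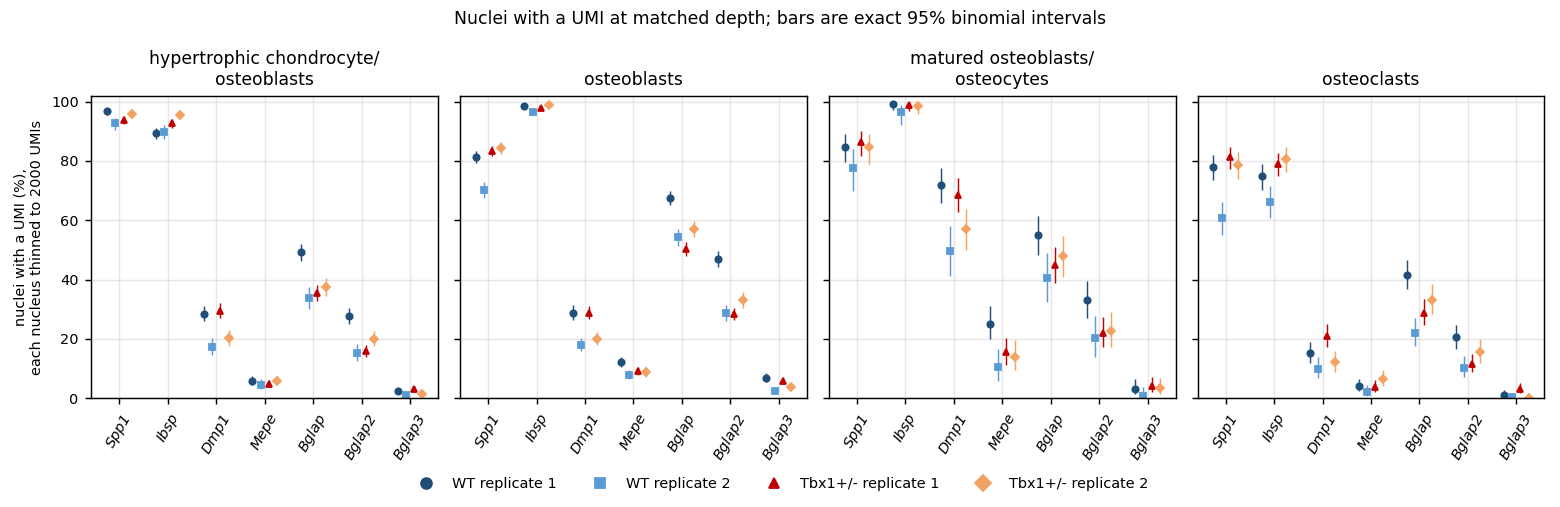
Percent of nuclei with at least 1 UMI of each gene after thinning to 2000 UMIs, by class, 1 point per library. Dmp1 is in 49.7% to 71.9% of matured osteoblasts and 9.97% to 20.9% of osteoclasts, whereas Ibsp is in 66.2% or more of the nuclei of all 4 classes.

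Across the 15 types, with the mean over libraries of log2(CPM + 1) as the measure and as a description only since all types share the same 4 libraries, the members fell into sets. Bglap and Bglap2 were most alike (Pearson r = 0.99), a pair of near-identical genes, and Dmp1 went with Mepe (0.95) and Ibsp with Mepe (0.93) and Bglap (0.92). Spp1 was the least like the others, from 0.39 with Bglap2 to 0.61 with Dmp1. Among the 13126 genes, the closest to Spp1 outside the family were Cysltr2, a leukotriene receptor (0.88), Timp1, an inhibitor of matrix metalloproteinases (0.87), and Tmem176a (0.85). The closest to Ibsp were Cgref1 (0.97), Galnt1, which starts mucin-type O-glycans (0.96), and Farp2 (0.96). Dmp1 was closest to Ptprz1, a receptor tyrosine phosphatase (0.98), and Mepe to Garem1 (0.97). Ifitm5, the bone-restricted membrane protein, was among the 3 closest to each of the 3 osteocalcins, at 0.93 to 0.96.

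Proteins that modify or bind the members were followed through lists drawn up for them. Of 16 genes for SIBLING processing, mineral balance and receptors, 14 reached 10 CPM in a type, and 9, 8 and 8 of these were above osteoclasts in 4 of 4 libraries in the hypertrophic class, osteoblasts and matured osteoblasts, beside 45.0%, 36.8% and 26.6% of all genes. In the same order 5, 5 and 4 of the 14 were below osteoclasts in 4 of 4 libraries. Phex, the endopeptidase that cleaves SIBLING peptides, stood at 5817 ± 213 CPM (SD, n = 4) in matured osteoblasts, 1597 ± 87.1 in osteoblasts and 212 ± 62.4 in osteoclasts. Fam20c, the kinase that phosphorylates the family, was also highest there, at 300 ± 23.7 CPM (SD, n = 4) against 32.4 ± 4.47 in osteoclasts. The receptors were divided. Itgav and Itgb3, which form the integrin that reads osteopontin, had 2799 ± 338 and 681 ± 68.6 CPM (SD, n = 4) in osteoclasts against 183 ± 17.4 and 29.3 ± 5.15 in osteoblasts, and Cd44 had 585 ± 33.7 against 49.1 ± 7.69. The integrin chains Itgb5 and Itgb1 were above osteoclasts in 4 of 4 libraries in the hypertrophic class and in osteoblasts, with Itgb5 at 181 ± 15.7 and 71.5 ± 6.94 CPM (SD, n = 4) against 45.3 ± 6.46 and Itgb1 at 351 ± 45.9 and 393 ± 50.6 against 310 ± 21.1. Tnc, a matrix glycoprotein, was highest in the hypertrophic class at 3868 ± 380 CPM (SD, n = 4). Dspp, the remaining SIBLING gene, was at 0.69 CPM or less in the mean of every type.

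Of 7 genes for osteocalcin, 5 reached 10 CPM, and 3 were above osteoclasts in 4 of 4 libraries in each class, with 2, 1 and 2 below in 4 of 4. Ggcx, the vitamin K-dependent carboxylase, had 39.8 ± 2.51 CPM (SD, n = 4) in osteoblasts and 18.4 ± 1.99 in osteoclasts. It was highest in matured chondrocytes, at 51.2 ± 14.2 CPM (SD, n = 4). The proposed osteocalcin receptors Gprc6a and Gpr158 were not among the 5. Of 10 regulators 9 reached 10 CPM, and 7 were above osteoclasts in 4 of 4 libraries in each class, with 1, 0 and 1 below in 4 of 4. For both lists too, the shares of all genes above osteoclasts were 45.0%, 36.8% and 26.6%. Runx2, the master factor of the lineage, was highest in the progenitor type CP1 at 8806 ± 448 CPM (SD, n = 4) and had 6974 CPM in the hypertrophic class, 4631 in osteoblasts and 3341 in matured osteoblasts, which is not the order of any of the 7 members. Mef2c was highest in matured osteoblasts at 4306 ± 338 CPM (SD, n = 4).

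Genotypes were compared within each class by edgeR's quasi-likelihood test, and a gene was called at more than 1.5-fold with an adjusted p under 0.05. Not 1 of the 7 genes was called in the hypertrophic class, osteoblasts, matured osteoblasts, osteoclasts or all annotated PTB nuclei, and 0% of genes were called in each (unadjusted p under 0.05 for 273, 192, 239, 288 and 217 genes; DESeq2 called 0, with 42, 36, 21, 65 and 115). The lowest estimate of each bone-forming class was that of Spp1 or Ibsp. Spp1 in the hypertrophic class had a log2 change of -0.72 (SE 0.36), Ibsp in osteoblasts -0.71 (SE 0.35) and Ibsp in matured osteoblasts -0.78 (SE 0.38), each with an adjusted p of 1.00 (edgeR). Estimates were below 0 for 6 of 7 genes in the hypertrophic class and for 7 of 7 in both osteoblast classes, but for 1 of 7 in osteoclasts, where Mepe, at 0.97 (SE 0.43), had the largest estimate in size of these 5 sums. Over all genes tested 51.2%, 47.5%, 51.2% and 48.7% of estimates were below 0 in these 4 types. Without WT replicate 1, the library with the highest Spp1 and Ibsp, 19 of the 21 estimates in the bone-forming classes changed sign, and Spp1 in the hypertrophic class was 0.02. Without WT replicate 2, 5 of the 21 were called (edgeR), Ibsp (-1.16) and Bglap2 (-1.14) in osteoblasts beside 0.205% of all genes, and Spp1 (-1.36), Ibsp (-1.33) and Dmp1 (-0.67) in matured osteoblasts beside 0.213%. With no filter on low counts 2 of the 21 were called, Spp1 in the hypertrophic class (-0.70, beside 0.0705% of all genes) and Ibsp in matured osteoblasts (-0.78, beside 0.0439%).

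**Figure D5:**
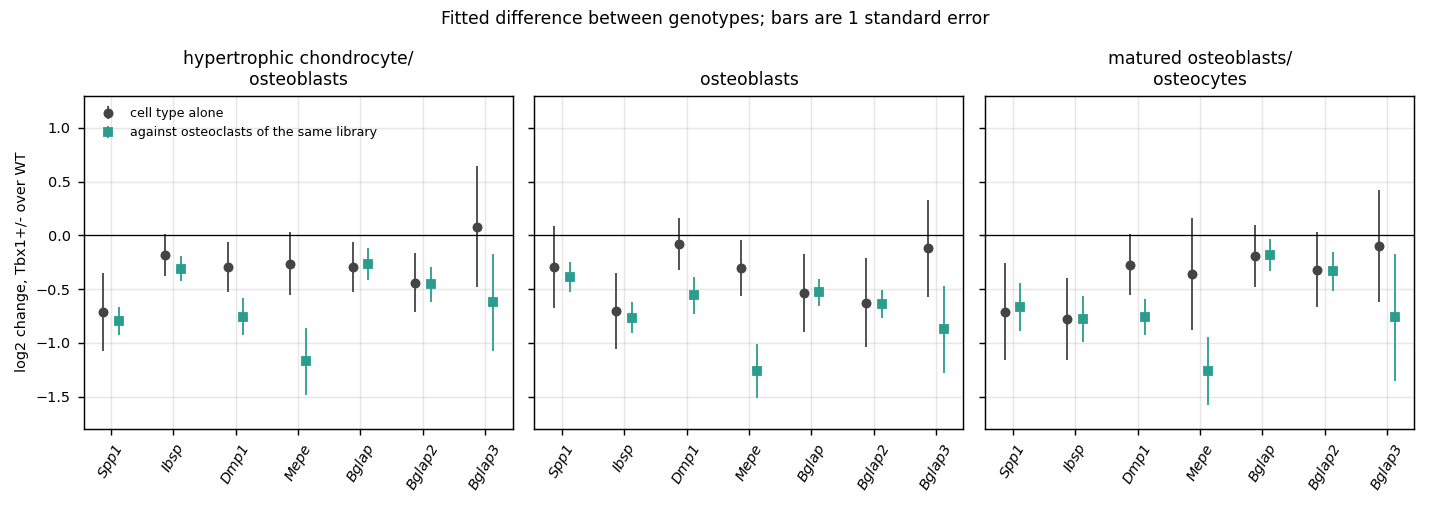
Log2 change of each gene in Tbx1+/- against WT with its standard error (edgeR), for the sums of a class alone and for the class against osteoclasts of the same library. The estimate of Spp1 in the hypertrophic class is -0.72 (SE 0.36) alone and -0.80 (SE 0.13) against osteoclasts, the 1 member called.

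The genotype difference was then taken within libraries, as the cell type by genotype term of a fit with the class and osteoclasts of each library. In the hypertrophic class Spp1 fell by 0.80 on the log2 scale against osteoclasts (SE 0.13, adjusted p = 0.0306, edgeR). Its ratios were 7.49 and 6.23 in WT and 3.35 and 4.67 in Tbx1+/-, which do not overlap. Of 12923 genes, 16.7% were likewise lower in both Tbx1+/- libraries than in both WT libraries in this class. Spp1 was 1 of 16 genes called of 14859 (0.108%), 3 higher and 13 lower. The other 6 members had estimates from -1.17 to -0.27 and were not called, with Dmp1 at -0.76 (SE 0.17, adjusted p = 0.124, edgeR). The call of Spp1 ended with DESeq2 (-0.81, adjusted p = 0.136), without the 8% of nuclei with the most UMIs in each library (-0.79, adjusted p = 1.00, edgeR) and without Tbx1+/- replicate 1 (-0.56, adjusted p = 0.568, edgeR). Without WT replicate 1 the estimate of Spp1 was -0.69 and that of Dmp1 was -1.12.

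Among the genes of the modifier and regulator lists, Phex (-0.82, SE 0.13, adjusted p = 0.0306) and Mef2c (-0.59, SE 0.11, adjusted p = 0.0380) were called lower in the same fit (edgeR), 1 of 14 and 1 of 9 genes tested beside 0.108% of all genes, and none of 6 osteocalcin modifiers was. Both calls were lost with DESeq2 and without the 8% of nuclei with the most UMIs, where 0 genes were called, and 1 gene was called without Tbx1+/- replicate 1. For both the genotypes differed more in the osteoclast reference, with log2 changes of 0.69 (SE 0.18) and 0.56 (SE 0.12), than in the hypertrophic class, with -0.11 and -0.03. Phex was at 188 and 135 CPM in osteoclasts of WT and at 268 and 257 CPM in those of Tbx1+/-, whereas the hypertrophic class had 754 and 642 CPM in WT and 708 and 597 CPM in Tbx1+/-. Osteocyte markers summed to 268 and 196 CPM in osteoclasts of WT and 356 and 326 CPM in those of Tbx1+/-, and osteoblast markers to 6864 and 4789 against 7937 and 5954 CPM. Phex alone was of a size to make up most of these osteocyte sums, so they are not given as a rise separate from it. The osteoblast sums of the genotypes overlapped. Spp1 in osteoclasts had a log2 change of 0.11 (SE 0.27), within its error, and in the hypertrophic class of -0.72 (SE 0.36). The part of the reference in the call of Spp1 was not tested.

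In osteoblasts against osteoclasts 0% of 15705 genes were called, with 687 at an unadjusted p under 0.05. All 7 members were below 0 with an unadjusted p under 0.05, and the smallest adjusted p was that of Ibsp, at -0.76 (SE 0.14, adjusted p = 0.226, edgeR). DESeq2 called 11 genes there, Ibsp among them (adjusted p = 0.00475). Its ratios were 9.83 and 6.87 in WT and 4.61 and 5.19 in Tbx1+/-. Without WT replicate 1 Ibsp was at -0.51 and Dmp1 at -0.91. In matured osteoblasts 0% of 13150 genes were called, with 661 at an unadjusted p under 0.05 (DESeq2 0 and 95), and Dmp1 had -0.76 (SE 0.17, adjusted p = 0.249, edgeR), with ratios of 25.4 and 32.5 in WT and 16.4 and 17.9 in Tbx1+/-.

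More members were also called when the replicate number was added to these fits as a block, which leaves fewer residual degrees of freedom. The paper speaks of separate batches, but the labels do not say which number marks which, so this stands as an alternative. In the hypertrophic class 3 of 7 members were then called (0.411% of all genes), Spp1 at -0.80, Dmp1 at -0.78 (adjusted p = 8.5e-06) and Mepe at -1.10 (adjusted p = 0.0300, edgeR). In osteoblasts they were 3 of 7 (0.433%), Ibsp at -0.77, Mepe at -1.25 and Bglap2 at -0.65, and in matured osteoblasts 3 of 7 (0.365%), Spp1 at -0.66, Ibsp at -0.78 and Dmp1 at -0.77. In no bone-forming class alone was a member called with the block. Mepe in the osteoclast reference rested on 161 UMIs, at 13.8 and 6.97 CPM in WT and 14.7 and 25.8 CPM in Tbx1+/-, and the part of this shift in its calls was not tested.

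Counted by libraries, the ratio to osteoclasts was lower in both Tbx1+/- libraries than in both WT libraries for 6 of 7 members in the hypertrophic class, 7 of 7 in osteoblasts and 6 of 7 in matured osteoblasts. Over all genes the share was 16.7%, 15.4% and 15.3%. The members share 4 libraries and 1 osteoclast sum in each, so these are not independent counts. With the barcodes outside the annotation as the reference, chosen after seeing the data, the counts were 2, 3 and 1 of 7, beside 11.5%, 10.4% and 11.5% of all genes. With CPM and no reference they were 0, 0 and 0 of 7, beside 11.7%, 9.58% and 12.3% of all genes. Spp1 in the hypertrophic class kept its order against the outside barcodes, with ratios of 12.5 and 9.39 in WT and 5.59 and 7.30 in Tbx1+/-. Against these barcodes the mean log2 ratio of the 4 SIBLING genes differed by -0.81 to -0.14 between Tbx1+/- and WT over the 3 classes. Dmp1 was lower in both Tbx1+/- libraries in each class, as were Spp1 in the hypertrophic class and Ibsp and Mepe in osteoblasts. Elsewhere WT replicate 2 was not above both Tbx1+/- libraries, as for Mepe in matured osteoblasts (9.11 against 11.9 and 21.6). For Bglap, Bglap2 and Bglap3 the differences in mean log2 ratio were 0.16, 0.20 and 0.25 in the hypertrophic class. They were -0.085, 0.069 and 0.13 in osteoblasts and 0.29, 0.41 and 0.29 in matured osteoblasts. In an exact permutation test 2 libraries against 2 cannot reach a p below 0.33.

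Bglap and Bglap3 gave a ratio that followed the libraries and no class. Bglap UMIs per Bglap3 UMI in osteoblasts numbered 37.5 and 51.6 in WT, 20.2 in Tbx1+/- replicate 1 and 46.6 in Tbx1+/- replicate 2. In osteoclasts they were 39.8, 54.3, 13.3 and 58.3 in the same order. In both types both replicate 1 libraries thus lay below both replicate 2 libraries. Bglap3, the scarcer gene, had few UMIs in the smaller types. For Bglap per Bglap3, Tbx1+/- replicate 1 was the lowest library in all 15 types. Bglap per Bglap2 was at 2.65 to 3.31 in osteoblasts, lowest in WT replicate 1, and at 2.27 to 2.69 in osteoclasts, lowest in Tbx1+/- replicate 1. In both types both replicate 1 libraries again lay below both replicate 2 libraries.

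In the PF/F, 48237 annotated nuclei and 174303641 UMIs held 3814 UMIs of Spp1 and few of the bone genes, 111 of Bglap, 47 of Ibsp, 16 each of Dmp1, Bglap2 and Bglap3, and 2 of Mepe. Spp1 was highest in the immune type, at 516 and 987 CPM in WT and 614 and 511 CPM in Tbx1+/-, a mean of 657 ± 225 CPM (SD, n = 4), with a UMI in 24.7% to 35.5% of its nuclei. The next type, meningeal nuclei, had 24.4 ± 12.4 CPM (SD, n = 4). Over all annotated PF/F nuclei Spp1 was at 24.0 and 32.5 CPM in WT and 11.1 and 21.0 CPM in Tbx1+/-. Differences here were not tested. Of the Bglap UMIs, 28 were in meningeal nuclei of WT replicate 2, 26 of them in 1 nucleus.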

How the data were processed

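The count values used here, as deposited, are raw UMIs of each gene in each barcode, made by the authors in Cell Ranger 7.0.0 in intron mode on mm10, per the submitters' processing notes and the paper's methods. They carry no correction for free RNA. Cell types are the authors' deposited annotation. The authors describe no doublet removal in the text read here, so the 8% of nuclei richest in UMIs were dropped as an alternative. UMIs were summed per library and type, with Python 3.11.15 and pandas 2.3.3, and expressed as CPM. For genotypes, edgeR 4.0.16 was run on these sums (low counts filtered by filterByExpr, TMM, quasi-likelihood, Benjamini-Hochberg) in R 4.3.3, and with DESeq2 1.42.0 as an alternative. Each SE was derived from the log2 change and its F statistic.

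The members and lists were chosen with earlier results of these data known. The 7 members and the genes of 3 lists were named, with the 3 genes most like each member and up to 3 other genes called per comparison, of which Eda and Lama2 are given with the closing values. A gene of the regulator list is not reported here and was left out of that list's counts. Replicate numbers come from the labels, which do not say what they mark (the paper speaks of separate batches), and p-values measure the spread between pools. On simulated osteoblast sums of 15573 genes, edgeR recovered 21% of 100 genes changed 2-fold and 97% of 100 changed 4-fold, and against osteoclasts 2% and 44%. The simulated sums varied independently at a fixed dispersion, with no library effect shared by a class and its osteoclasts. This dispersion was set and not estimated from the libraries, and only genes above a minimum expected count were changed. The values, alone and against osteoclasts, therefore do not measure the power of the fits on real libraries.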

Additional observations from a re-analysis of the deposited data

Results flagged for a closer look

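Over the 4 PTB libraries, WT replicate 1 lay far above the other 3 for Ibsp in osteoblasts (10761 CPM, with 4544 to 5282 CPM in the others) and in matured osteoblasts (10976 CPM, with 4010 to 4470 CPM in the others). The gap to the nearest library was 0.88 and 0.93 of the whole range, above the critical value of Dixon's test for 4 samples. These were 2 of 28 combinations of gene and class tested, and chance flags about 1 in 20.

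The genotype difference in the hypertrophic class departed from that in osteoclasts, by the cell type by genotype term (edgeR), for Spp1 (-0.80 on the log2 scale), Phex (-0.82) and Mef2c (-0.59). Of the other genes called in this fit, 2 are named by the smallest p: Eda, a ligand of the tumour necrosis factor family (0.88, SE 0.15, adjusted p = 0.0306), and Lama2, a laminin chain (-0.76, SE 0.13, adjusted p = 0.0306). With DESeq2 and without the 8% of nuclei with the most UMIs, 0 genes were called in this comparison. In CPM alone the Spp1 values of the hypertrophic class did not separate the genotypes, since WT replicate 2 (3625 CPM) lay below Tbx1+/- replicate 2 (4230 CPM). The estimate of the class alone was -0.72 (SE 0.36) and was not called.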

How the results depend on the processing

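Counts of genes called changed with the setting. Without a filter on low counts they were 17 in the hypertrophic class and 9 in matured osteoblasts (0 in the report), and 45, 46 and 37 for the hypertrophic class, osteoblasts and matured osteoblasts against osteoclasts. RLE factors gave 25, 4 and 1 for these 3, nuclei with at least 2000 detected genes 9, 4 and 1, DESeq2 0, 11 and 0, and 0, 0 and 0 were called without the 8% of nuclei richest in UMIs. With a replicate block the counts were 4 in matured osteoblasts, 3 in osteoclasts, and 61, 68 and 48 against osteoclasts, and 8 of the 21 member estimates against osteoclasts were newly called. Newly called there were also 9 with no filter on low counts, beside the 45, 46 and 37 genes called of 25054, 25329 and 23560 tested. RLE factors and DESeq2 newly called 1 each, beside their counts above, of 14859, 15705 and 13150 genes tested. Fits that left out a library also gained or lost member calls. Libraries of the same number shared only that number in the labels, and their deviations from the genotype means correlated across genes at 0.24 to 0.48 in the 5 sums. Leaving out each library in turn gave 0 to 2 calls in the hypertrophic class, 0 to 33 in osteoblasts (33 without WT replicate 2), 1 to 24 in matured osteoblasts (24 without WT replicate 2), 0 to 206 in osteoclasts (206 without WT replicate 1), 0 to 0 in all nuclei, and 1 to 60, 6 to 57 and 1 to 18 against osteoclasts (60 without WT replicate 1, 57 and 18 without Tbx1+/- replicate 2); the lone library left is then assumed to vary like the others. The cause was not tested.

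The log2 changes of single classes crossed 0 when a library was left out, mostly WT replicate 1. The ranges in the hypertrophic class were Spp1 -1.19 to 0.017, Ibsp -0.42 to 0.11, Dmp1 -0.63 to 0.15, Mepe -0.65 to 0.33, Bglap -0.60 to 0.11, Bglap2 -0.81 to 0.091, Bglap3 -0.77 to 1.10. In osteoblasts they were Spp1 -0.77 to 0.39, Dmp1 -0.41 to 0.33, Mepe -0.60 to 0.039, Bglap -0.95 to 0.019, Bglap2 -1.14 to 0.15, Bglap3 -0.67 to 0.76. In matured osteoblasts they were Spp1 -1.36 to 0.50, Ibsp -1.33 to 0.11, Dmp1 -0.67 to 0.28, Mepe -1.05 to 1.16, Bglap -0.57 to 0.33, Bglap2 -0.80 to 0.47, Bglap3 -0.60 to 1.05, and Bglap3 was 0.16 there without the richest 8% of nuclei. Against osteoclasts the fitted estimates of the 7 genes kept their sign in the alternatives run. With the barcodes outside the annotation as the reference, most genotype differences of the osteocalcins were above 0. With barcodes outside the annotation as the reference, the mean log2 ratio was 3.06 for Spp1 in the hypertrophic class, 3.43 for Ibsp, 2.89 for Bglap and 2.48 for Bglap2 in osteoblasts, and 5.34 for Dmp1 in matured osteoblasts, all higher than against osteoclasts. With UMIs per nucleus in place of CPM, added after seeing the data, the mean log2 ratio of Bglap in the hypertrophic class was -0.012. The counts of members with ratios lower in both Tbx1+/- libraries were 2, 3 and 1 with the outside barcodes (11.5%, 10.4% and 11.5% of all genes) and 0, 0 and 0 with CPM alone (11.7%, 9.58% and 12.3%). With 4 libraries, a 2-fold change in simulated osteoblast sums, at a dispersion set beforehand, was recovered for 21% of the genes changed.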
